A study of Mus musculus with 20 samples.

Results

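The genes described here are Mgmt, Dcxr, Fbxw9 and Ptp4a3, 4 of the 25719 genes in the count table, taken by symbol because earlier results on these libraries placed them among the transcripts higher in topical knockout than in topical control keratinocytes. All 4 were among the 12424 genes with enough counts to test. Keratinocytes of the ear and back skin of 20 mice had been enriched by cell sorting, and the RNA of each mouse was sequenced as 1 library. Knockout mice (cKO) were K14-CreERTam x Cyp11b1 L2/L2, with both Cyp11b1 alleles floxed and a tamoxifen-activated Cre recombinase under the keratin 14 promoter, which is active in basal cells of stratified epithelia. Controls were littermates of genotype Cyp11b1 L2/L2 without Cre. All 20 mice received tamoxifen on 5 days in a row and cells were taken on day 6, so no group lacks tamoxifen, and no group has Cre without floxed alleles. Topical mice had 20 µl in ethanol put on the ear and 100 µl on the shaved back, and systemic mice had 100 µl of a 10 mg/ml solution in oil and ethanol injected into the peritoneum, so route, solvent and shaving cannot be told apart. There were 5 mice in each of the 4 groups, and their ages are not given in the sources used here.

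The 4 proteins have unrelated tasks. Mgmt encodes O6-methylguanine-DNA methyltransferase, which moves an alkyl group from guanine onto a cysteine of its own and is used up in the reaction. Dcxr encodes the dicarbonyl and L-xylulose reductase, an NADPH-dependent enzyme of the uronate cycle that also reduces reactive dicarbonyls. Fbxw9 encodes an F-box protein with WD repeats, a class of proteins that bring substrates to SCF ubiquitin ligases, in which Skp1, Cul1 and Rbx1 form the shared core. Ptp4a3 encodes a small prenylated phosphatase that binds the CNNM magnesium transporters and has been described as p53-inducible. Cyp11b1, the deleted gene, encodes the enzyme that completes corticosterone synthesis.

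The genes lie on different chromosomes of the GRCm38 build. In the GENCODE M21 annotation Mgmt spans chr7:136894614-137130266 on the plus strand, Dcxr chr11:120725399-120727281 on the minus strand, Fbxw9 chr8:85060055-85067124 on the plus strand and Ptp4a3 chr15:73723145-73758766 on the plus strand. Ptp4a3 is on the chromosome of the deleted gene, 1.08 Mb from Cyp11b1 (chr15:74834125-74841643, minus strand), with 18 protein-coding RefSeq genes between them. Exons of Fbxw9 share 217 bases with A230103J11Rik, a noncoding gene on the opposite strand. The strand setting of the counting is not given in the sources used here, so reads from those bases cannot be assigned to 1 strand.

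RefSeq promoter sequences (GRCm38.p6) were found for 3 of the 4 genes, Mgmt, Dcxr and Fbxw9. They are shown so that the start sites of genes that were high in the same libraries can be compared. The 250 bases before the start site were searched on both strands, and capitals mark matches. For Fbxw9 the last bases of the searched window are not printed, since GENCODE starts the gene there. The printed stretches are chr7:136894336-136894585 (plus), chr11:120727285-120727534 (minus) and chr8:85059869-85060054 (plus).
Mgmt: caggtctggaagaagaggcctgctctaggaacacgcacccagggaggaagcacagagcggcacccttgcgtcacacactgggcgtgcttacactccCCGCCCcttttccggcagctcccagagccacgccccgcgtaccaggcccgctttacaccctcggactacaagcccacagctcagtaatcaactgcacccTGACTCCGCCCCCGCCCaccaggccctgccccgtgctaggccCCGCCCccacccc
Dcxr: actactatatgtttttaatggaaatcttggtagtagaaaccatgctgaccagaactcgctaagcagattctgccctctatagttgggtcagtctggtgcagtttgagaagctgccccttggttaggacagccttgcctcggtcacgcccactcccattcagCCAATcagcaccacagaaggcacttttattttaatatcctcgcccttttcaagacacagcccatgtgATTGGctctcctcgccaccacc
Fbxw9: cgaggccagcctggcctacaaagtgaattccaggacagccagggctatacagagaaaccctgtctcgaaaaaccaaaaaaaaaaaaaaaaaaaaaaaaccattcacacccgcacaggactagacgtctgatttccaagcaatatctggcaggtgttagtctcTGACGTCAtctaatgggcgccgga
No motif searched was found in more than 1 of these genes. The Mgmt window held 4 GC boxes (GGGCGG, found in 32.7% of all 32851 promoter windows) and 1 antioxidant-type element (TGACNNNGC, 10.2%), which overlaps a GC box. The Dcxr window held 2 CCAAT boxes (CCAAT, 33.8%), and the Fbxw9 window held 1 cyclic AMP element (TGACGTCA, 1.55%). None held the palindromic glucocorticoid response element (0.00913%), its single arm (AGAACA, 16.1%), the E-box (CACGTG, 6.02%), the AP-1 site (TGANTCA, 6.75%) or the p53 decamer (7.13%). A further RefSeq start site of Mgmt had no match to any of them. Over the full 250 bases searched, which for Fbxw9 run past the printed stretch, CpG dinucleotides numbered 15 for Mgmt, 13 for Fbxw9 and 5 for Dcxr, against a median of 6 over all windows. The GC box, CCAAT box, cyclic AMP element and p53 decamer were added after the values and sequences had been seen.

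Library totals ran from 11.6 to 50.1 M counts (M, 1e6), and the 4 genes had between 34 and 973 counts in a library. Levels are counts per 1e6 counts (CPM) after TMM scaling, a per-library factor that ran from 0.780 to 1.52. The 5 keratinocyte markers Krt5, Krt14, Krt1, Krt10 and Trp63 summed to between 69813 and 104352 CPM of the library total, so the labelled cell type was present in every library. Markers of fibroblasts (6 genes) summed to at most 32.0 CPM, of endothelium (5) to 9.48, of melanocytes (6) to 35.1, of epidermal immune cells (5) to 30.6 and of pericytes and smooth muscle (5) to 37.9. Cyp11b1 itself had 9 reads in topical control, 7 in topical cKO, 2 in systemic control and 4 in systemic cKO, so its loss was not detectable at this depth. Transcripts of 12 satellite-like predicted genes summed to over 50 CPM in 6 libraries, all 5 systemic controls and systemic cKO 2, and reached at most 42.5 CPM in the other 14. This split nearly follows genotype among the systemic libraries. In bulk RNA a change in the share of cells and a change of RNA per cell cannot be told apart.

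Mgmt was at 3.98, 3.26, 2.66, 2.43 and 2.55 CPM in topical control mice 1, 3, 5, 6 and 7. In topical cKO mice 2, 3, 4, 5 and 7 it was at 8.97, 8.19, 10.7, 7.12 and 10.8 CPM. Every cKO library lay above every control library, and the lowest cKO value, in mouse 5, was well clear of the highest control, mouse 1. After injection, systemic control mice 1, 3, 4, 5 and 6 had 3.45, 3.82, 3.09, 3.36 and 3.52 CPM, the tightest group of all for this gene (SD 0.265). Systemic cKO mice 2, 4, 5, 6 and 7 had 3.35, 3.01, 3.87, 5.38 and 4.50 CPM. Those 2 groups overlapped, with cKO mouse 4 below every control and cKO mice 5, 6 and 7 above every control. On the log2 scale Mgmt was higher by 1.61 (SE 0.18) in topical cKO, the difference by which it was chosen.

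Dcxr was at 12.7, 11.5, 7.44, 10.1 and 8.87 CPM in topical control mice 1, 3, 5, 6 and 7. Topical cKO mice 2, 3, 4, 5 and 7 had 24.8, 26.1, 30.6, 22.3 and 28.5 CPM. The groups did not overlap. Systemic controls 1, 3, 4, 5 and 6 spread from 8.16 CPM in mouse 6 to 16.3 CPM in mouse 5, with 10.5, 11.6 and 11.9 CPM in mice 1, 3 and 4. Systemic cKO mice 2, 4, 5, 6 and 7 lay close together at 13.7, 13.1, 13.4, 14.4 and 13.7 CPM. All 5 were above the control median, and none reached control mouse 5. The log2 difference in the topical groups was 1.38 (SE 0.16).

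Fbxw9 was at 15.8, 15.8, 10.3, 14.4 and 13.9 CPM in topical control mice 1, 3, 5, 6 and 7. Topical cKO mice 2, 3, 4, 5 and 7 had 29.1, 26.7, 37.4, 24.8 and 42.7 CPM. The groups were apart, with cKO mice 4 and 7 the highest. In systemic control mice 1, 3, 4, 5 and 6 the values were 11.9, 13.6, 13.6, 13.5 and 15.9 CPM. In systemic cKO mice 2, 4, 5, 6 and 7 they were 15.9, 15.03, 16.7, 16.7 and 18.9 CPM. The 2 systemic groups met only at their edges, where cKO mouse 4 lay below control mouse 6. The topical log2 difference was 1.19 (SE 0.15), the smallest of the 4 genes.

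Ptp4a3 varied most of the 4 genes within topical cKO, but least relative to its mean in topical control (coefficient of variation 10.2%). It was at 9.48, 9.36, 7.64, 7.71 and 8.57 CPM in topical control mice 1, 3, 5, 6 and 7. Topical cKO mice 2, 3, 4, 5 and 7 had 18.3, 19.3, 39.7, 24.1 and 54.4 CPM, and all exceeded the controls. The coefficient of variation in topical cKO was 49.9%, against 12.2% for Dcxr, 17.4% for Mgmt and 23.6% for Fbxw9. After injection the controls 1, 3, 4, 5 and 6 had 9.89, 6.46, 6.85, 7.94 and 7.65 CPM. The systemic cKO mice 2, 4, 5, 6 and 7 had 11.9, 8.78, 7.77, 7.97 and 12.0 CPM. Those groups overlapped, with cKO mice 2 and 7 above every control. The topical log2 difference was 1.85 (SE 0.24), and without topical cKO mouse 7 it was 1.56.

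**Figure D1:**
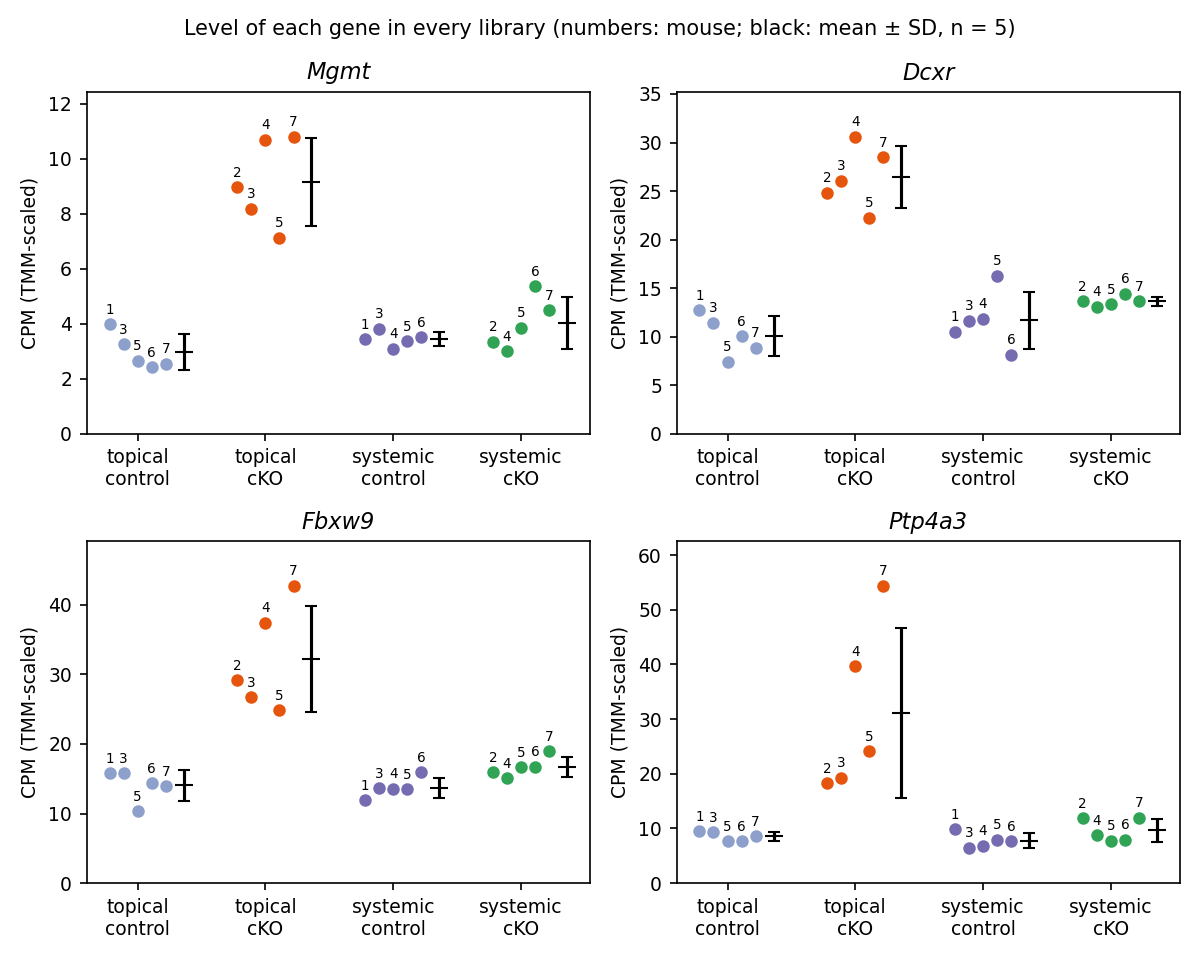
TMM-scaled CPM (vertical axes, starting at 0) of each gene in the 20 libraries, by group (horizontal axes); points are mice, labelled with their numbers, and black marks are the mean ± SD of 5 mice. In each panel the topical cKO points lie above the points of the 3 other groups, and the largest spread is that of Ptp4a3 in topical cKO (SD 15.6 CPM).

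In the topical comparison 16 of 12424 genes (0.129%) were called at an adjusted p under 0.05 by edgeR's quasi-likelihood test with Benjamini-Hochberg adjustment, all higher in cKO. The 4 genes held ranks 1, 2, 4 and 5 by p among them, and rank 3 was Mcam. Because they were chosen on this comparison, nothing is tested on them here. The lack of overlap between the topical groups was largely set by that choice and was not counted over all genes. The 4 genes did not have the largest differences: 93 genes had a log2 difference at least as high as the 1.19 of Fbxw9. Fibroblast markers summed to 1.45 to 9.88 CPM in topical control and 3.17 to 32.0 CPM in topical cKO, and endothelial markers to 1.04 to 5.20 and 1.38 to 9.48 CPM. Their part in the topical values was not tested.

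Per kilobase of exon, Dcxr was the most abundant of the 4 transcripts in every group. In topical control the levels were 8.84 ± 1.82 CPM per kb for Dcxr, 4.15 ± 0.666 for Fbxw9, 1.03 ± 0.224 for Mgmt and 0.915 ± 0.0933 for Ptp4a3 (mean ± SD, n = 5). In topical cKO they were 23.1 ± 2.83 for Dcxr, 9.50 ± 2.25 for Fbxw9, 3.33 ± 1.66 for Ptp4a3 and 3.16 ± 0.551 for Mgmt. In both groups the spreads of the lowest pair, Mgmt and Ptp4a3, overlapped. In systemic control the levels were 10.2 ± 2.59 CPM per kb for Dcxr, 4.05 ± 0.426 for Fbxw9, 1.19 ± 0.0915 for Mgmt and 0.830 ± 0.143 for Ptp4a3. In systemic cKO they were 11.9 ± 0.438 for Dcxr, 4.92 ± 0.428 for Fbxw9, 1.39 ± 0.327 for Mgmt and 1.04 ± 0.225 for Ptp4a3, so the order was that of topical control.

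The order of mice within topical cKO depended on the scaling, while the separation of the groups did not. The genes were chosen for being high in these same cKO libraries, so separation on a second scale is no independent check. With TMM factors, mice 4 and 7 were the highest and mouse 5 the lowest for Mgmt, Dcxr and Fbxw9, though mouse 4 exceeded mouse 7 for Dcxr. Scaled by the library total alone, the lowest mouse was 4 for Mgmt, 7 for Dcxr and 2 for Fbxw9. The coefficient of variation then fell to 7.81% for Mgmt and 7.36% for Fbxw9, and was 15.3% for Dcxr and 31.8% for Ptp4a3. Ptp4a3 kept mouse 7 as the highest on both scales, at 43.0 CPM of the library total. On this scale too the lowest topical cKO library exceeded the highest topical control for each gene, at 8.34 against 4.19 CPM for Mgmt, 22.5 against 13.4 for Dcxr, 28.7 against 16.6 for Fbxw9 and 18.1 against 9.97 for Ptp4a3. The TMM factors of topical cKO ran from 0.780 in mouse 4 to 1.31 in mouse 5, and the same 2 mice had the lowest and the highest share of mitochondrial counts, 2.67% and 7.49%. The mice 3, 4 and 7 of this group had almost no Y-linked transcripts and were read as female. Ptp4a3 averaged 37.8 CPM in these and 21.2 CPM in the 2 males, and no gene was compared between sexes by a test.

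**Figure D2:**
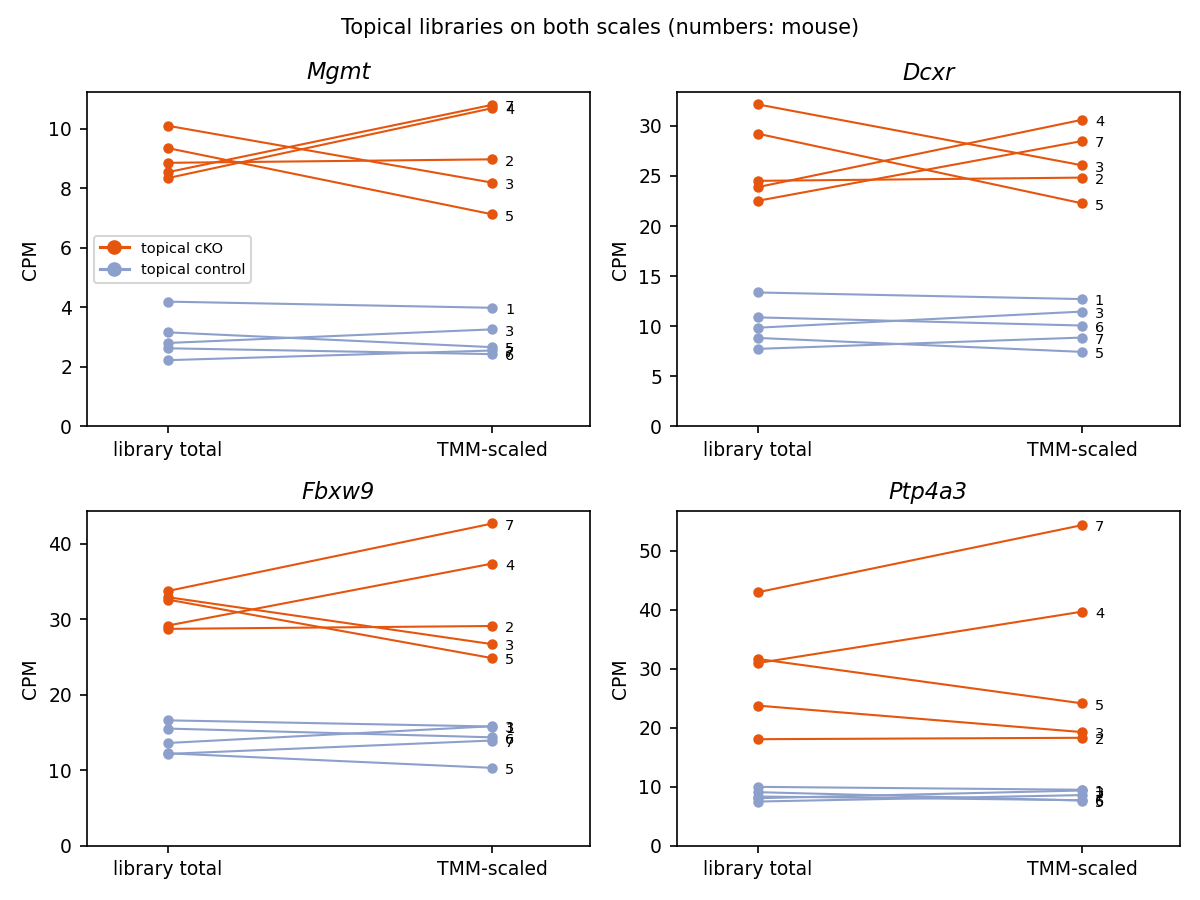
CPM of each gene in the 10 topical libraries (vertical axes, from 0) by library total alone (left) and after TMM scaling (right); lines join the values of a mouse, whose number stands at the right. The cKO lines cross in each panel, yet at both ends every cKO point lies above every control point, in the libraries by which the genes were chosen.

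The difference between systemic cKO and systemic control took no part in the choice of the genes, and it was tested. The systemic libraries did enter the estimate of spread that the fit shares over all 4 groups. All 4 genes averaged higher in systemic cKO, by 0.21 (SE 0.18) on the log2 scale for Mgmt, 0.23 (SE 0.16) for Dcxr, 0.28 (SE 0.15) for Fbxw9 and 0.31 (SE 0.24) for Ptp4a3. None passed the test: the adjusted p from edgeR was 0.644 for Mgmt, 0.540 for Dcxr, 0.384 for Fbxw9 and 0.597 for Ptp4a3, in a comparison where 235 of 12424 genes (1.89%) were called, 1.36% higher and 0.531% lower in cKO. The 95% intervals ran from -0.17 to 0.59 for Mgmt, -0.10 to 0.56 for Dcxr, -0.030 to 0.59 for Fbxw9 and -0.19 to 0.82 for Ptp4a3. Each upper bound was below the topical estimate of the same gene, though that estimate had been used in the choice.

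Two-sided exact permutation tests of the systemic groups, run on log2(CPM + 1) (252 arrangements, smallest possible p 0.00794) gave p = 0.286 for Mgmt, 0.167 for Dcxr, 0.0159 for Fbxw9 and 0.111 for Ptp4a3, 4 tests without adjustment. The value for Fbxw9 rested on the scaling. With CPM of the library total alone the difference of 0.27 became 0.19 and its exact permutation p became 0.444, since systemic control mouse 6 then rose to 24.1 CPM, above every systemic cKO library. Without systemic control mouse 5 the exact permutation p of Dcxr was 0.0159, and without systemic control mouse 1 that of Ptp4a3 was 0.0317.

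Systemic cKO 2, the 1 knockout library on the satellite-like side of the controls, lay within the range of the systemic controls for Mgmt and Dcxr and above it for Fbxw9 and Ptp4a3. Without this library the log2 differences from edgeR were 0.26 for Mgmt, 0.23 for Dcxr, 0.29 for Fbxw9 and 0.23 for Ptp4a3, with adjusted p between 0.319 and 0.666. When the split at 50 satellite-like CPM entered the fit as a covariate, the log2 difference of Mgmt became -0.046 (SE 0.33) and that of Ptp4a3 0.62 (SE 0.41).

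The genotype effect was smaller after injection for each gene. Systemic minus topical, the log2 differences were -1.40 (SE 0.26) for Mgmt, -1.16 (SE 0.22) for Dcxr, -0.91 (SE 0.21) for Fbxw9 and -1.54 (SE 0.34) for Ptp4a3. These hold the topical comparison that chose the genes and are given without a test. Over all genes 0.25% were called for this difference, 0.0644% in the direction of the 4 genes. The route differences were larger in the knockouts than in the controls, which was not tested. Systemic cKO was below topical cKO by -1.19 (SE 0.18) for Mgmt, -0.95 (SE 0.16) for Dcxr, -0.95 (SE 0.15) for Fbxw9 and -1.69 (SE 0.24) for Ptp4a3. No systemic cKO library reached a topical cKO library for any of the 4. The topical cKO values had taken part in the choice of the genes, and such separation was not counted over all genes. In this route comparison 9.22% of all genes were called, 5.19% higher and 4.02% lower after injection. Between the control groups the differences were 0.21 (SE 0.18) for Mgmt, 0.20 (SE 0.16) for Dcxr, -0.035 (SE 0.15) for Fbxw9 and -0.14 (SE 0.24) for Ptp4a3, and the libraries of both groups overlapped for each. Here 18.3% of all genes were called. The sum of 5 hair follicle markers, which include Krt15, moved with the route, from 7362 to 12446 CPM in topical cKO and from 15280 to 19597 CPM in systemic cKO, and its part in these values was not tested.

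**Figure D3:**
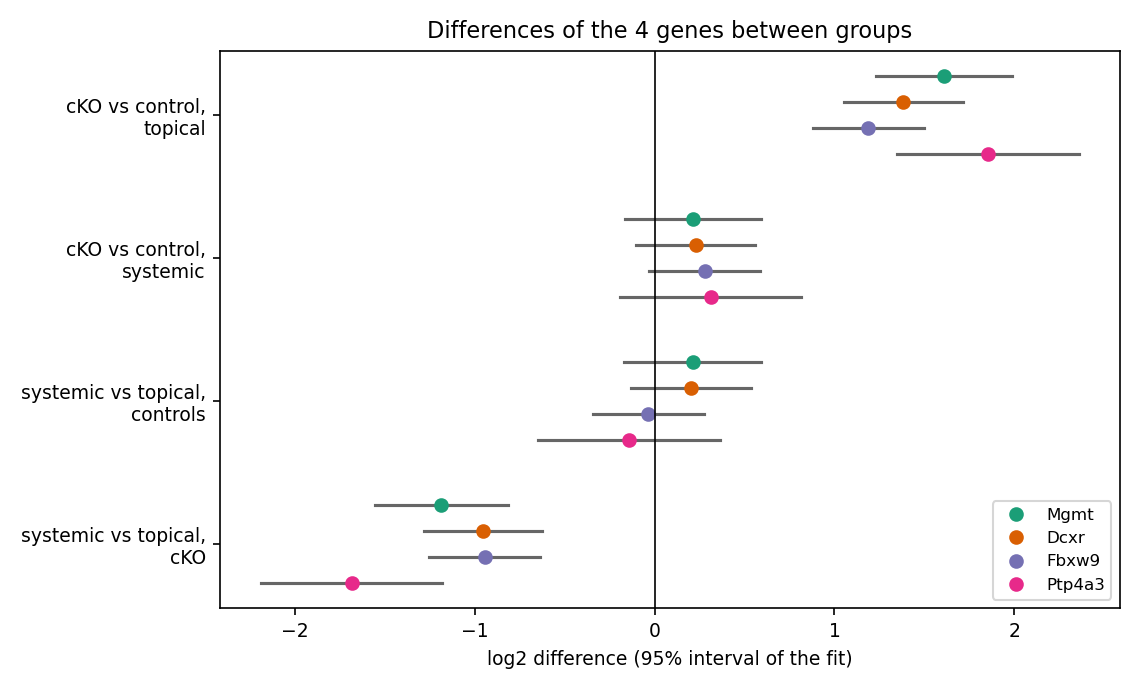
Log2 differences of the 4 genes (horizontal axis) in both genotype comparisons and both route comparisons, from the edgeR fit of all 20 libraries; lines are 95% intervals. The topical differences between cKO and control, 1.19 to 1.85, lie to the right, the systemic ones, 0.21 to 0.31, have intervals that cross 0, and the route differences in cKO lie to the left.

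Correlations of log2 CPM over the 20 libraries describe how alike the genes were, and they hold the topical difference by which the genes were chosen. Over these libraries r between members ran from 0.852 (Dcxr and Ptp4a3) to 0.938 (Mgmt and Fbxw9). The 3 genes most like Mgmt were Fbxw9, Dcxr (r = 0.921) and Gapdhs (r = 0.891), a glyceraldehyde phosphate dehydrogenase best known from sperm. Gapdhs was also the gene most like Fbxw9 (r = 0.946) and Ptp4a3 (r = 0.933). It was at 1.63 ± 0.162 CPM in topical control and 4.45 ± 1.78 CPM in topical cKO, and at 1.70 ± 0.308 and 2.01 ± 0.301 CPM in systemic control and cKO (SD, n = 5). The third gene most like Dcxr was Siva1 (r = 0.879), which encodes an apoptosis-associated protein. The third most like Ptp4a3 was the interferon-stimulated gene Ifi27l2a (r = 0.887).

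After the mean of each group was removed, the genes were much less alike. The r of their deviations over the 20 libraries was 0.622 for Fbxw9 with Ptp4a3 and with Mgmt, 0.438 for Mgmt with Dcxr, 0.432 for Dcxr with Fbxw9, 0.351 for Mgmt with Ptp4a3 and 0.272 for Dcxr with Ptp4a3. Within the 10 systemic libraries, r of the deviations ran from -0.290 for Dcxr with Fbxw9 to 0.434 for Mgmt with Fbxw9. The points share their library and its scaling factor, and across the 20 libraries the deviations correlated with that factor at -0.571 for Dcxr and -0.0606 for Mgmt. By deviations no member was among the 3 genes most like another. The genes named next have the highest r among all genes tested, so high values can arise by selection alone, and none was tested. The genes most like Ptp4a3 were Oas1g (r = 0.781) and Irf7 (r = 0.744), an antiviral enzyme gene and a regulator of interferon genes, and Irx3 (r = 0.727). Oas1g was at 4.68 ± 7.38 CPM in topical cKO (SD, n = 5) and averaged at most 0.488 CPM in the other groups. Spock2, Apol8 and Anpep were most like Mgmt (0.703 to 0.747), Dnajb1, Tns4 and Abi3 most like Dcxr (0.736 to 0.748), and Mfsd11, Ring1 and Hoxa5 most like Fbxw9 (0.793 to 0.832).

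The other genes around each member's task showed no called change in the topical comparison. Only 0.129% of all genes were called there, so 0 calls do not set lists of this size apart from other genes. Of 19 alkylation repair and mismatch repair genes, all tested, 0 were called there, and their median log2 difference was 0.013, against 0.020 over all genes. Alkbh2, which repairs alkylated bases directly by oxidation, had the highest value, 0.70 (SE 0.28, adjusted p 0.799 from edgeR). The abundant repair genes Apex1, Polb and Pcna had 0.020, -0.30 and 0.0074. In the systemic comparison, where 1.89% of all genes were called, 0 were called as well. The median was -0.064, and Exo1, an exonuclease of mismatch repair, was lowest at -1.01 (SE 0.32, adjusted p 0.104 from edgeR). For both comparisons over all 12424 genes, 703 and 1907 genes had an unadjusted p under 0.05.

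Around Dcxr, 16 of 18 genes of the glucuronate and xylulose pathway and of carbonyl reduction were tested. In the topical comparison, where 0.129% of all genes were called, 0 were called, with a median of 0.015. The aldehyde reductase gene Akr1a1, which makes the gulonate of this pathway, had -0.10 (SE 0.27), and the transketolase gene Tkt 0.016 (SE 0.23). Cbr2, a carbonyl reductase gene that lies next to Dcxr on the chromosome, had 0.17 (SE 0.21). In the systemic comparison, where 1.89% of all genes were called, 1 was called. This was Cryl1, the gulonate dehydrogenase gene, which rose by 0.73 (SE 0.19, adjusted p 0.0427 from edgeR). Cryl1 was at 13.1 to 17.5 CPM in systemic cKO mice 4 to 7 and at 7.49 CPM in systemic cKO 2, within the control range of 7.11 to 9.48 CPM. Its call was lost when the systemic libraries were fitted alone (adjusted p 0.171 from edgeR), with the library total or either satellite-like measure as a covariate, and in 14 of the 20 fits without 1 library.

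Around Fbxw9, all 18 genes of SCF ligases and their regulators were tested. Of these 0 were called in the topical comparison (median 0.027), where 0.129% of all genes were called. The core genes Skp1, Cul1 and Rbx1 had -0.35 (SE 0.31), -0.0089 (SE 0.13) and -0.079 (SE 0.23). Of the 7 other genes of the Fbxw family on the list, Fbxw4 had the highest topical value, 0.37 (SE 0.30). In the systemic comparison, where 1.89% of all genes were called, 1 was called. This was Fbxw2, another substrate receptor gene, which rose by 0.55 (SE 0.13, adjusted p 0.0338 from edgeR). It was at 19.0 to 28.4 CPM in systemic controls, 26.1 CPM in systemic cKO 2 and 31.5 to 38.2 CPM in the 4 other systemic cKO mice, and it was not called with either satellite-like covariate, in a fit of the systemic libraries alone (adjusted p 0.175 from edgeR), without the filter on low counts, or in 7 of the 20 fits without 1 library.

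Around Ptp4a3, 12 of 16 genes of the PTP4A family, the CNNM transporters and magnesium transport were tested. Of these 0 were called in either genotype comparison, where 0.129% (topical) and 1.89% (systemic) of all genes were called. Their log2 differences ran from -0.32 (Cnnm2) to 0.29 (Slc41a1) in the topical comparison. In the systemic comparison they ran from -0.47 (Cnnm4) to 0.49 (Cnnm3). The 2 other genes of the family, which encode close relatives of the Ptp4a3 phosphatase, had topical differences of -0.051 (SE 0.21) for Ptp4a1 and -0.00032 (SE 0.24) for Ptp4a2. Ptp4a1 ranged from 81.7 to 107 CPM in topical control and from 76.8 to 114 CPM in topical cKO, and Ptp4a2 from 208 to 406 and from 236 to 395 CPM. Both ranges overlapped almost wholly. The partner genes Cnnm2, Cnnm3 and Cnnm4 had topical differences of -0.32 (SE 0.29), 0.026 and 0.036. The mitochondrial and endoplasmic magnesium transport genes Mrs2 and Magt1 had -0.20 and -0.18.

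**Figure D4:**
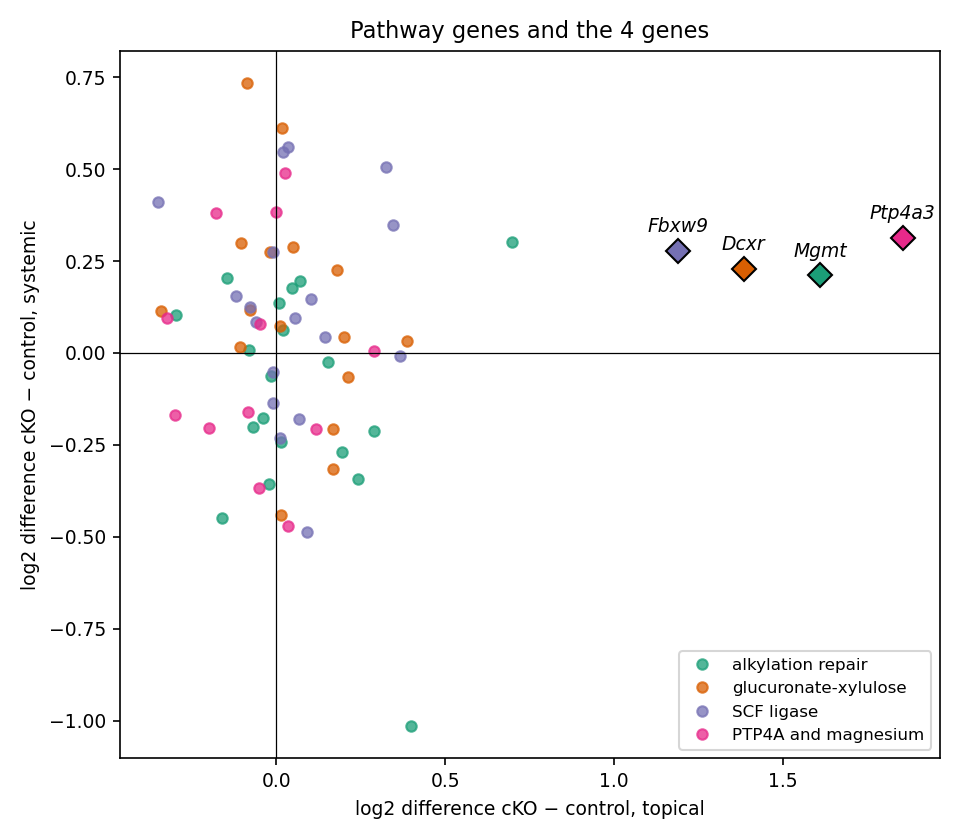
Log2 differences between cKO and control of the tested list genes (circles) and the 4 genes (diamonds, in the colour of their list), topical on the horizontal axis and systemic on the vertical axis. The diamonds stand apart on the horizontal axis, by which they were chosen, and the circles reach at most 0.70 there.

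More of these genes were called between routes than between genotypes. In controls, systemic against topical, 7 of 16 genes of the Dcxr list were called, 1 higher and 6 lower, with a median of -0.41. In cKO 6 were called, 1 higher and 5 lower, with a median of -0.41. The carbonyl reductase gene Cbr3 fell by 1.04 in controls and by 0.80 in cKO on the log2 scale, and Cbr1 fell by 0.76 and 1.11. Of the repair genes 3 and 5 were called in these comparisons, of the SCF genes 5 and 0, and of the Ptp4a3 list 3 and 0, where 18.3% and 9.22% of all genes were called. The satellite-like split is the same as the route in controls, and with that split as a covariate 0 genes of the 4 lists were called there.

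Chromosomal neighbours were examined because position did not enter the choice of the genes. Of the 5 nearest protein-coding RefSeq genes on each side, 24 were tested over the 4 members, and 0 were called in the topical comparison. Only 0.129% of all genes were called there, so 0 of 24 does not set the neighbours apart from other genes. Their topical log2 differences ran from -0.29 to 0.49 around Mgmt (5 tested), 0.0082 to 0.28 around Dcxr (8), -0.25 to 0.35 around Fbxw9 (8) and -0.016 to 0.19 around Ptp4a3 (3). Of the 18 genes between Ptp4a3 and Cyp11b1, 7 were tested and 0 were called in either genotype comparison, with topical values from -0.94 to 0.46. In the systemic comparison, where 1.89% of all genes were called, 3 of the 24 neighbours were called, 1 higher and 2 lower in cKO. Whether position plays a part in this was not tested. The 2 lower ones are described here. Lrrc45, near Dcxr, fell by 1.11 (SE 0.27, adjusted p 0.0318 from edgeR), and Hook2, near Fbxw9, fell by 0.88 (SE 0.18, adjusted p 0.0109 from edgeR). In both, systemic cKO 2 lay within the range of the systemic controls, and with either satellite-like covariate 0 of all genes were called by edgeR in this comparison (572 and 263 genes at an unadjusted p under 0.05). Both calls were also lost in the fit of the systemic libraries alone, and that of Lrrc45 in 8 of the 20 fits without 1 library.

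**Figure D5:**
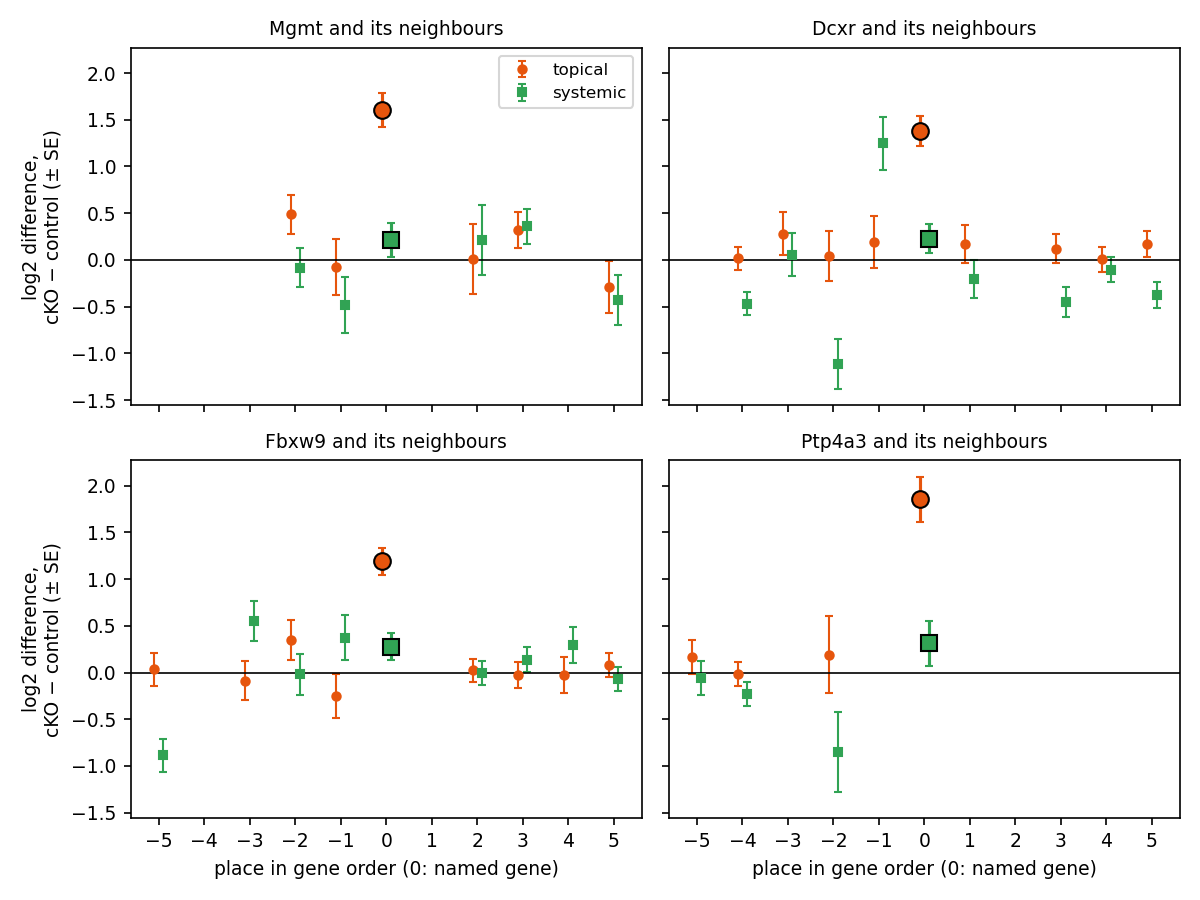
Log2 difference between cKO and control (vertical axis, ± SE) of each gene at place 0 (large symbols) and of its tested neighbours in gene order (horizontal axis), topical as circles and systemic as squares. At place 0 the topical circles lie at 1.19 to 1.85, and no neighbour has a topical value above 0.49.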

How the data were processed

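Total RNA of sorted keratinocytes was sequenced as 20 SmartSeq II libraries, 1 per mouse, per the labels' protocols. The authors deposited raw counts, whole-number reads per gene, and STAR, featureCounts and the GRCm38 (mm10) build are named in the submitters' processing notes without versions. Counts were analysed with edgeR 4.0.16 in R 4.3.3: TMM factors, filterByExpr (minimum count 10, minimum total 15), 1 robust quasi-likelihood fit of all 20 libraries with 1 coefficient per group, two-sided F tests and Benjamini-Hochberg adjustment over 12424 genes, with calls at an adjusted p under 0.05. Intervals are 95% from the SE and the total degrees of freedom of the fit. The 4 members and the lists were chosen with earlier results of these data known. Named genes are the members, Cyp11b1, the 3 genes most like each member by level and by deviation (log2 CPM, prior count 2), Ptp4a1, Ptp4a2, list genes and neighbours called in a genotype comparison (the result for 1 neighbour is not reported here), and otherwise the 3 most abundant genes of a list; others were named after their values were seen. Replicates are separate mice. Sex was read from 4 Y-linked genes (over 5 CPM). Alternatives used DESeq2 1.42.0, limma 3.58.1, other filters, covariates and left-out libraries. Satellite-like, mitochondrial and depth covariates were added after the data were seen. The pipeline was tested on simulated data. Exact tests used scipy 1.17.1.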

Additional observations from a re-analysis of the deposited data

How the results depend on the processing

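The topical differences of the 4 genes stayed within 1 SD of the spread between mice in every alternative fit and in all 20 fits without 1 library, from 1.54 to 1.74 for Mgmt, 1.29 to 1.48 for Dcxr, 1.07 to 1.27 for Fbxw9 and 1.56 to 2.00 for Ptp4a3 in the latter. The filter at a mean of 5 CPM removed Mgmt. In the systemic comparison no alternative fit brought a member past the threshold (adjusted p from 0.167, Fbxw9), and Mgmt changed sign to -0.046 with the split at 50 satellite-like CPM in the fit, where its route difference in controls moved to 0.52. Whether mouse numbers shared between genotypes pair the libraries was not settled. The correlations of deviations over the 6 same-numbered pairs ran from -0.145 to 0.338, and pairs with different numbers were not compared with them. With the replicate block the systemic differences were 0.29, 0.29, 0.25 and 0.24 for Mgmt, Dcxr, Fbxw9 and Ptp4a3, and called genes numbered 9 (topical) and 0 (interaction by edgeR, 1632 at an unadjusted p under 0.05, with 31 called without the block). Left-out libraries moved the exact test differences between 0.064 and 0.23 for Mgmt, 0.13 and 0.35 for Dcxr, 0.22 and 0.32 for Fbxw9, and 0.20 and 0.36 for Ptp4a3, and library totals alone gave 0.19 for Fbxw9.

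Counts over all genes moved more. DESeq2 called 42 (topical), 559 (systemic) and 321 (interaction), and voom 26 (topical), 204 (interaction) and 3493 (route in controls). The satellite-like covariates, on the log2 scale and over 50 CPM, left 0 and 0 (systemic), 0 and 0 (interaction; 555 and 306 at an unadjusted p under 0.05 by edgeR) and 118 and 1 (route in controls). The mitochondrial covariate gave 1320, 364 and 3496 in the same order, the systemic libraries alone 35, and the interaction had 49 with the 5 CPM filter and 49 with sex as a covariate. Without 1 library the counts ran from 10 to 19 (topical), 81 without systemic cKO 6 to 787 without systemic cKO 2 (systemic), 16 without systemic cKO 5 to 470 without systemic cKO 2 (interaction), 1463 to 2603 (route in controls) and 746 to 1218 (route in cKO). The cause was not tested.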
